A study of Mus musculus with 8 samples.

Results

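The genes described here are 9 genes of polyamine metabolism: Odc1, Srm and Sms of synthesis, Oaz1, Oaz2 and Azin1 of the control of Odc1, and Smox, Sat1 and Paox of breakdown. They were represented by every probe set that the array's annotation paired with exactly 1 of these symbols, which gave 14 of the 45101 probe sets, for 7 of the 9 genes. Sms was read only by probe sets shared with a pseudogene, and Paox had no named probe set and was not analysed here. Of the 14 probe sets 13 passed the filter on dim signals, and the exception was the probe set 1442541_at of Oaz2, with signals of 7.9 to 16.7.

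Polyamines (putrescine, spermidine and spermine) are small positively charged molecules that bind nucleic acids and are needed for growth and for translation. Ornithine decarboxylase makes putrescine, aminopropyl transferases extend it to spermidine and spermine, antizymes send the decarboxylase to the proteasome, and the antizyme inhibitor holds antizymes back. Breakdown runs through an acetyltransferase and oxidases, and spermine oxidase is known as an enzyme that is abundant in skeletal muscle and lower in muscle wasting.

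Total RNA of quadriceps muscle from adult male C57Bl/10 mice was hybridised to Affymetrix Mouse 430 2.0 arrays, 4 for control muscle and 4 for hypoxia muscle. Control mice stayed in room conditions for 2 weeks, and hypoxia mice spent 2 weeks in a closed chamber where oxygen was lowered from 21% to 8% over the first week and held at 8% for 7 days. Chamber and low oxygen cannot be told apart. The labels name each quadriceps but do not say that the 4 samples of a group came from different mice, so p-values measure only the spread between these samples, which may be technical.

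Whole-series checks bear on several values. The array hypoxia 1 had a Gapdh 3'/5' ratio, a sign of RNA quality, of 3.44, and every other array had 0.776 to 0.874. Its beta-actin ratio was 2.53, with 1.40 to 1.59 on hypoxia 2 to 4 and 1.09 to 1.25 on the control arrays. Of 6 muscle fibre markers, all detected, 4 were lower in hypoxia as scaled by the authors, and the summed signal of the 6 was 276719 to 330376 in control and 196026 to 268484 in hypoxia. The 4 log2 changes were much smaller after quantile normalization: -0.07 in place of -0.48 for Acta1, -0.20 in place of -0.55 for Ckm, -0.09 in place of -0.47 for Myh4 and -0.03 in place of -0.44 for Tnnt3. After median centring they mostly stayed, at -0.40 for Acta1, -0.47 for Ckm, -0.39 for Myh4 and -0.36 for Tnnt3. All 4 fibroblast markers and both measured adipocyte markers were lower (summed signals of 30385 to 40475 against 12869 to 16866, and of 2448 to 15855 against 686 to 3140.1). Of 5 tested neutrophil markers 3 were higher (479 to 1055 against 3225 to 6032, sums that also hold Mpo, which was below the filter). Of 8 macrophage markers 1 was higher (Cd68, by 3.93 on the log2 scale) and 2 were lower (Adgre1 and Csf1r), with overlapping sums (11633 to 16732 against 9787 to 18404). Of 4 endothelial, 2 erythroid and 1 Schwann cell markers tested, 0 passed by limma, and at an unadjusted p under 0.05 there were 2 endothelial markers (Kdr and Tek) and the Schwann cell marker Mbp, all lower. No marker was listed at 0. The part of these cell types and of RNA quality in the polyamine values was not tested, and in a bulk sample fewer cells of a type and less RNA per cell cannot be told apart.

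Below are the promoter windows of 2 of the pairs compared further on, the breakdown enzymes Smox and Sat1 and the antizymes Oaz1 and Oaz2. The pair of Odc1 and Azin1 is not shown, since no window was found for Azin1. Each runs 5' to 3' on the gene's strand from 250 bases before to 50 bases after the annotated start, from RefSeq on GRCm38.p6: Smox at chr2:131491612-131491911 (plus strand), Sat1 at chrX:155216400-155216699 (minus strand), Oaz1 at chr10:80826406-80826705 (plus strand) and Oaz2 at chr9:65676298-65676597 (plus strand). Capitals mark GGGCGG, the letters of a GC box, on either strand, and TATAAA, the letters of a TATA box.
Smox: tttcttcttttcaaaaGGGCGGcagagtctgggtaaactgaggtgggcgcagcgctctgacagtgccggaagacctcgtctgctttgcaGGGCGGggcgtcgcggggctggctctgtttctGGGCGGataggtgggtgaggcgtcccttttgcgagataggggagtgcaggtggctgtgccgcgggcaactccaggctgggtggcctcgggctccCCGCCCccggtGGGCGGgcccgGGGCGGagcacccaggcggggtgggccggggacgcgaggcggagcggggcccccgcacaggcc
Sat1: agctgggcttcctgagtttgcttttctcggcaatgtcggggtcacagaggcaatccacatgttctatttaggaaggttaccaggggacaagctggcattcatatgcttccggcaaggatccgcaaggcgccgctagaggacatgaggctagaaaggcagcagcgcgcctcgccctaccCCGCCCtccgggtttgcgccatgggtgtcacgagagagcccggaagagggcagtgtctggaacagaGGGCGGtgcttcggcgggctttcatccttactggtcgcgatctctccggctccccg
Oaz1: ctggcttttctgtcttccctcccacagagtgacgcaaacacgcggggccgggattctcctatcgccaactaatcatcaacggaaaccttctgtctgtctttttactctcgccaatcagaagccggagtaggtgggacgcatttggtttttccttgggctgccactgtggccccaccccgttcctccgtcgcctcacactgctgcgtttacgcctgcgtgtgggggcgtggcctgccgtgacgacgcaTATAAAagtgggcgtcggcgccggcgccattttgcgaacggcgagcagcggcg
Oaz2: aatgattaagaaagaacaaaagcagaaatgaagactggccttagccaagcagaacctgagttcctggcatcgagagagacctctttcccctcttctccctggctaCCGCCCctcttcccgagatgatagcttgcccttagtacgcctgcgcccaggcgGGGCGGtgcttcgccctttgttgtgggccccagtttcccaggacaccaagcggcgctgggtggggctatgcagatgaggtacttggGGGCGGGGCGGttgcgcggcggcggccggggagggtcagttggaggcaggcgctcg

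The Smox window held 6 matches of GGGCGG, Oaz2 held 4, Sat1 held 2 and Oaz1 held none, while 35.7% of 32851 RefSeq promoter windows of this length held at least 1. TATAAA, on either strand, was matched in the Oaz1 window and not in the other three, against 13.6% of all windows. The core letters bound by hypoxia-inducible factors, ACGTG (19.6% of windows) and GCGTG (32.4%), were searched on both strands: Smox, Sat1 and Oaz2 had no match, and Oaz1 had 3 matches of GCGTG. The Odc1 window, at chr12:17544623-17544922 (plus strand), also had 3 matches of GCGTG and none of CACGTG, the E-box bound by Myc, which 7.15% of windows hold. The motif ACGTG overlaps CACGTG. These matches describe letters in the windows only. Windows were found for 7 of the 9 genes, and not for Srm and Azin1.

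Across the pathway, Smox, Oaz2 and Azin1 transcripts were lower after hypoxia, Sat1 and Srm were higher, and the brightest probe sets of Odc1 and Oaz1 did not pass the test (log2 changes of -0.16 and -0.30). Of the 13 probe sets past the filter 8 were lower and 2 higher by limma at an adjusted p of 0.05. Over all 27022 probe sets tested 16.4% were lower and 12.5% higher. Groups did not overlap for 11 of the 13, against 30.1% of all probe sets. Both the 8 and the 11 include the dim Smox probe set 1446509_at, which passed the filter through its control signals. The median log2 change of the 13 was -0.97, and that of all tested probe sets was -0.04. Smox, Odc1, Oaz2 and Azin1 enter these values with several probe sets each. With only the brightest probe set of each of the 7 genes, 3 were lower and 2 higher. Among all 13257 genes read in this way 17.8% were lower and 14.0% higher. Signals are MAS5 intensities, each change is the hypoxia mean less the control mean of log2(signal + 16), and its standard error (SE) and adjusted p come from limma.

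**Figure D1:**
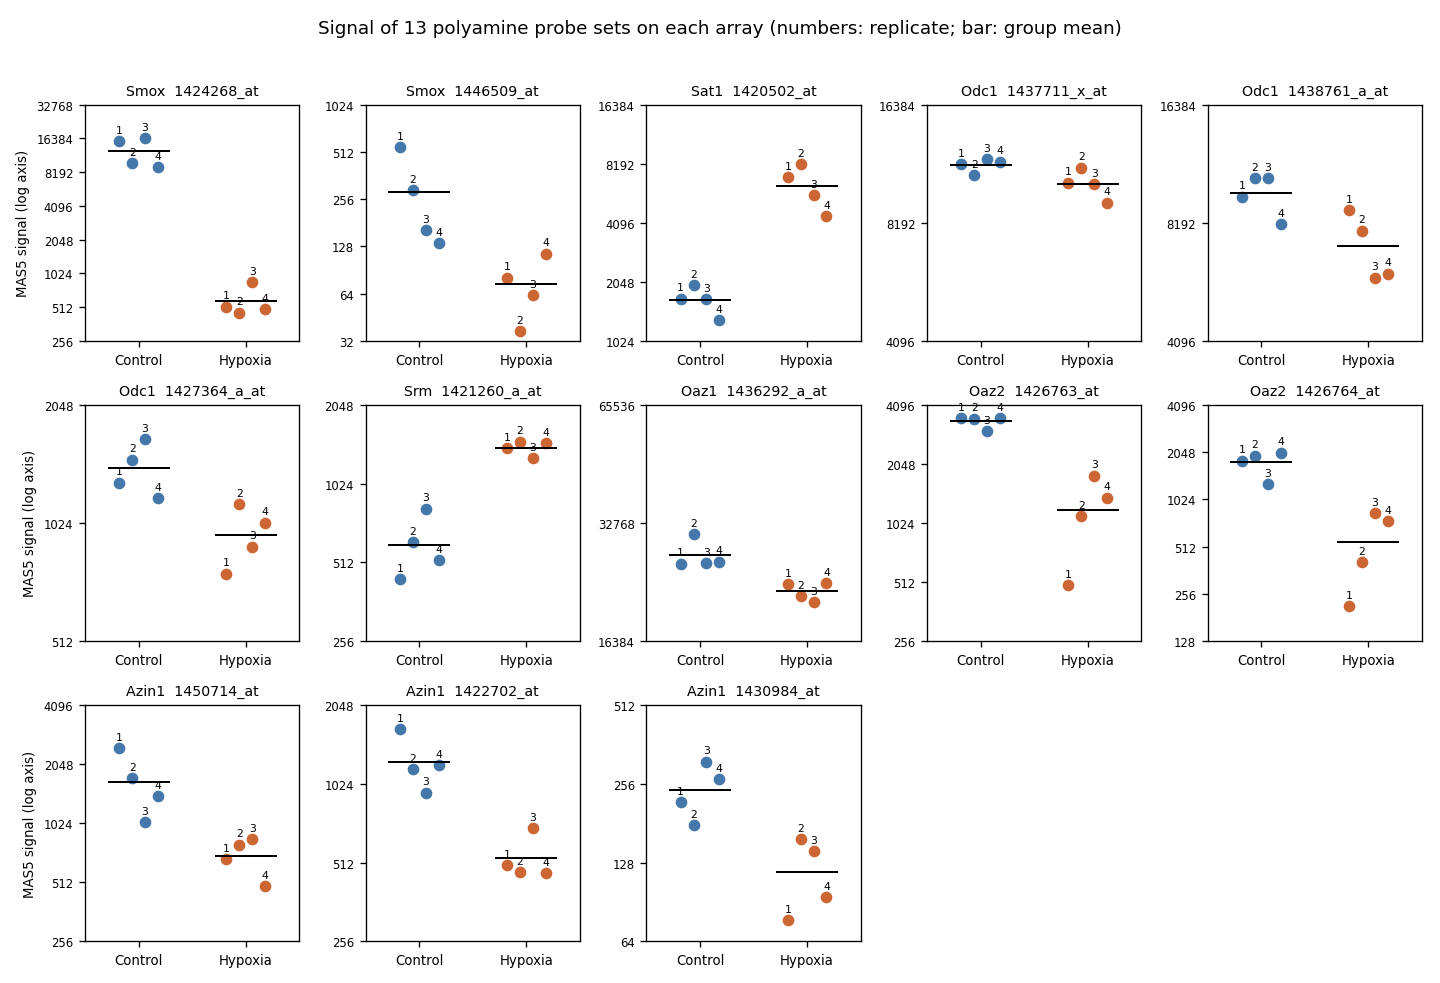
MAS5 signal (log axis) of the 13 probe sets past the filter on each array, by group, with replicate numbers beside the points and group means as bars. The groups do not overlap in 11 panels; they overlap for Odc1 1437711_x_at and Odc1 1438761_a_at, and hypoxia 1 is the lowest array for both Oaz2 probe sets.

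Spermine oxidase, which turns spermine back into spermidine and releases hydrogen peroxide and an aldehyde, had the largest change of the members. On the probe set 1424268_at the Smox signals of control 1 to 4 were 15436, 9797, 16386 and 9020.0, and those of hypoxia 1 to 4 were 519, 458, 852 and 493. The lowest control array was thus far above the highest hypoxia array. Smox fell 21.2-fold (log2 change -4.40 ± 0.24 SE, n = 4 per group, limma adjusted p = 1.75e-07), the 20th lowest change among 27022 probe sets. Without each array in turn the change stayed between -4.60 and -4.26.

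The other Smox probe set, 1446509_at, was dim. Its signals were 546, 291, 163 and 135 in control and 80.8, 36.8, 62.9 and 115 in hypoxia. The groups did not overlap, but control 4 and hypoxia 4 lay close to each other, and 3 of the 4 hypoxia signals were below the signal of 90.2 at the filter. This probe set fell by 1.61 ± 0.43 on the log2 scale (adjusted p = 0.0135, limma). The within-array log2 ratio of the 2 Smox probe sets differed by -2.79, with no overlap between groups, at an exact two-sided permutation p of 0.0286, which is the smallest that 4 against 4 arrays allow, and an adjusted p of 0.171 over the 6 pairs of probe sets compared. The hypoxia mean of 1446509_at, 73.9 ± 32.8 (SD), lay below the filter signal, which the probe set passed through its control signals of 284 ± 188. Its fall is therefore no independent support for that of 1424268_at, and the difference in size is measured against a probe set near the floor in hypoxia.

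Sat1 encodes spermidine/spermine N1-acetyltransferase, which marks polyamines for oxidation by Paox or for export. Its 1 probe set, 1420502_at, read 1684, 1966, 1668 and 1308 in control and 7007, 8143, 5657 and 4425 in hypoxia. Each hypoxia array was above every control array, and hypoxia 4 was the lowest of its group. Sat1 rose 3.72-fold (log2 change 1.90 ± 0.20 SE, n = 4 per group, adjusted p = 2.24e-05, limma). These breakdown enzymes thus moved in opposite directions. The within-array log2 ratio of Smox to Sat1 fell by 6.30 (exact permutation p = 0.0286, adjusted p = 0.0381 over 4 pairs of members). Relative to the control mean the hypoxia arrays lay between -6.99 and -5.59. Each gene alone separated the groups, in opposite directions, so their ratio had to separate them too. The p of this pair therefore adds no support.

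Srm encodes spermidine synthase, which adds an aminopropyl group to putrescine. Signals of its probe set 1421260_a_at were 441, 612, 821 and 522 in control and 1394, 1480.3, 1283 and 1461 in hypoxia. The hypoxia arrays lay close together and all above control 3, the highest control array. Srm rose 2.37-fold (log2 change 1.24 ± 0.19 SE, n = 4 per group, adjusted p = 0.000386, limma).

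Sms encodes spermine synthase, the next step. Its 3 probe sets are paired with both Sms and the pseudogene Sms-ps, so they stand outside the 14, and their reading of Sms is uncertain. The brightest, 1434190_at, read 3095, 3593, 3215 and 3113 in control and 1581, 1958, 1584 and 1359 in hypoxia, a fall of 1.01 ± 0.15 (SE) on the log2 scale (adjusted p = 0.000284, limma). The others fell by 1.18 and 0.89, and on all 3 the groups did not overlap. The planned comparisons of Srm with Sms and of Smox with Paox could not be made.

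Odc1 encodes ornithine decarboxylase, the short-lived enzyme that starts the pathway. On its brightest probe set, 1437711_x_at, whose suffix x marks probes that can also match other transcripts, signals were 11571, 10827, 11880 and 11719 in control and 10372, 11306, 10272 and 9208 in hypoxia. The groups overlapped, and the change of -0.16 ± 0.12 (SE; 95% interval -0.43 to 0.10) did not pass (adjusted p = 0.354, limma). On 1438761_a_at signals were 9544, 10633, 10655 and 8125 in control and 8821, 7819, 5934 and 6077 in hypoxia, again with overlap, and the change of -0.45 ± 0.16 missed the threshold (adjusted p = 0.0533, limma). It was called lower under 5 alternatives: without hypoxia 1 (-0.56, adjusted p = 0.0130), without control 4 (-0.54, 0.0448), after quantile normalization (-0.54, 0.0069), with array weights (-0.49, 0.0240) and with the 60% filter (-0.45, 0.0423).

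The dimmest, 1427364_a_at, read 1295, 1485, 1672 and 1186 in control and 761, 1145, 891 and 1026 in hypoxia. Its groups did not overlap, although control 4 and hypoxia 2 were close. It fell by 0.56 ± 0.17 on the log2 scale (adjusted p = 0.0300, limma). That call was lost without control 2 (-0.53, adjusted p = 0.0782), control 3 (-0.47, 0.0928), hypoxia 1 (-0.46, 0.0598) or hypoxia 3 (-0.53, 0.0566). It was also lost after median centring (-0.48, 0.0595) and in eBayes without trend (-0.56, 0.0562). Over all alternatives the change ran from -0.65 to -0.46. All 3 Odc1 estimates were negative, and the within-array ratio of the brightest to each other probe set differed by 0.29 and 0.39 between groups, with adjusted exact permutation p = 0.229 for both.

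**Figure D2:**
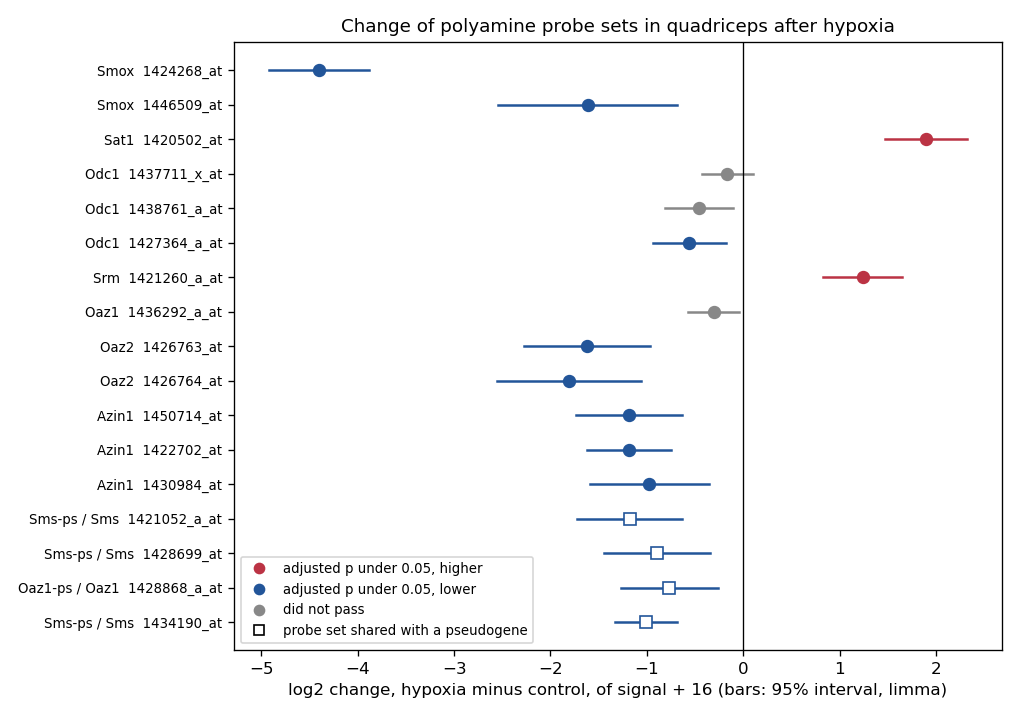
Log2 change (hypoxia minus control, of signal + 16) of each probe set past the filter, with 95% intervals from limma; squares are probe sets shared with a pseudogene. Smox 1424268_at, at -4.40, lies far to the left of all others, and Sat1 (1.90) and Srm (1.24) are the ones to the right of 0.

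The antizymes differed. Oaz1 encodes antizyme 1, whose translation needs a polyamine-dependent frameshift. The probe set 1436292_a_at was bright in every array, with 25804, 30629, 25885 and 26134 in control and 22883, 21318, 20563 and 22988 in hypoxia. The groups did not overlap, but the gap was small, and the change of -0.30 ± 0.12 (SE; 95% interval -0.57 to -0.04) did not pass (adjusted p = 0.0829, limma). A probe set shared with the pseudogene Oaz1-ps, 1428868_a_at, fell by 0.77 ± 0.23 (adjusted p = 0.0258, limma), with its lowest signal, 4918, in hypoxia 1. Without hypoxia 1 it fell by 0.51 (adjusted p = 0.0243, limma).

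Oaz2 encodes antizyme 2, a second antizyme of Odc1. On 1426763_at its signals were 3498, 3476, 3000 and 3485 in control and 495, 1107, 1782 and 1376 in hypoxia. Every hypoxia array was below every control array, and hypoxia 1, the array with the high 3' to 5' ratio, was the lowest by far. Oaz2 fell 3.08-fold (log2 change -1.62 ± 0.30 SE, n = 4 per group, adjusted p = 0.00153, limma), and without hypoxia 1 it fell by 1.26 (adjusted p = 0.000176, limma).

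The second Oaz2 probe set, 1426764_at, read 1801, 1938, 1281 and 2026 in control and 215, 408, 836 and 741 in hypoxia. It showed the same order, with hypoxia 1 lowest, and fell by 1.81 ± 0.35 (adjusted p = 0.00188, limma), or by 1.43 without hypoxia 1 (adjusted p = 0.000992). The ratio of Oaz1 to Oaz2 within arrays rose by 1.32 (exact permutation p = 0.0286, adjusted p = 0.0381 over 4 pairs), by 2.48 in hypoxia 1 and by 0.51 to 1.24 in the other hypoxia arrays. Left without hypoxia 1, the mean difference was 0.93, which 3 against 4 arrays cannot test below 0.0571. The Oaz2 probe set in this ratio was 1426763_at, with a lowest control signal of 3000 and a highest hypoxia signal of 1782. On the log2 scale this gap exceeds the whole range of Oaz1, from 20563 to 30629. No arrangement of the Oaz1 values could have made the ratios overlap. The p of 0.0286 for this pair therefore adds no support beyond the Oaz2 call.

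Azin1 encodes antizyme inhibitor 1, a homologue of Odc1 without enzyme activity that binds antizymes more tightly than Odc1 does. On 1450714_at the signals were 2464, 1735, 1032 and 1408 in control and 673, 794, 846 and 487 in hypoxia, with no overlap and a wide control range. Azin1 fell 2.28-fold (log2 change -1.19 ± 0.25 SE, n = 4 per group, adjusted p = 0.00396, limma).

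A second Azin1 probe set, 1422702_at, gave nearly the same size, from 1653, 1160.2, 945 and 1207 in control to 501, 471, 694 and 468 in hypoxia (log2 change -1.18 ± 0.20, adjusted p = 0.000817, limma). On the dim 1430984_at, signals of 178 to 310.2 in control and 77.2 to 157 in hypoxia did not overlap, and it fell by 0.97 ± 0.28 (adjusted p = 0.0213, limma). That call was lost, at changes close to this, without control 3 (-0.85, adjusted p = 0.0704), control 4 (-0.92, 0.0612) or hypoxia 4 (-0.90, 0.0518). The 3 Azin1 probe sets thus all fell by between 0.97 and 1.19.

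Within arrays, the ratio of Odc1 1437711_x_at to Azin1 1450714_at rose by 1.02. On these probe sets the groups did not overlap (exact permutation p = 0.0286, adjusted p = 0.0381 over 4 pairs). That separation depends on the Odc1 probe set. With 1438761_a_at or 1427364_a_at in its place, control 3 lies above hypoxia 3. Control 3 read 10655 and 1672 on these, with 1032 for Azin1, and hypoxia 3 read 5934 and 891, with 846 for Azin1. No other control array reaches the hypoxia range. Ratios with these other Odc1 probe sets were not tested. The ratio of Odc1 to Oaz1 differed by 0.14, with overlapping groups (exact permutation p = 0.343, adjusted p = 0.343). A shift of a whole array cancels in these ratios, which show unequal change and not which of the 2 genes changed.

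**Figure D3:**
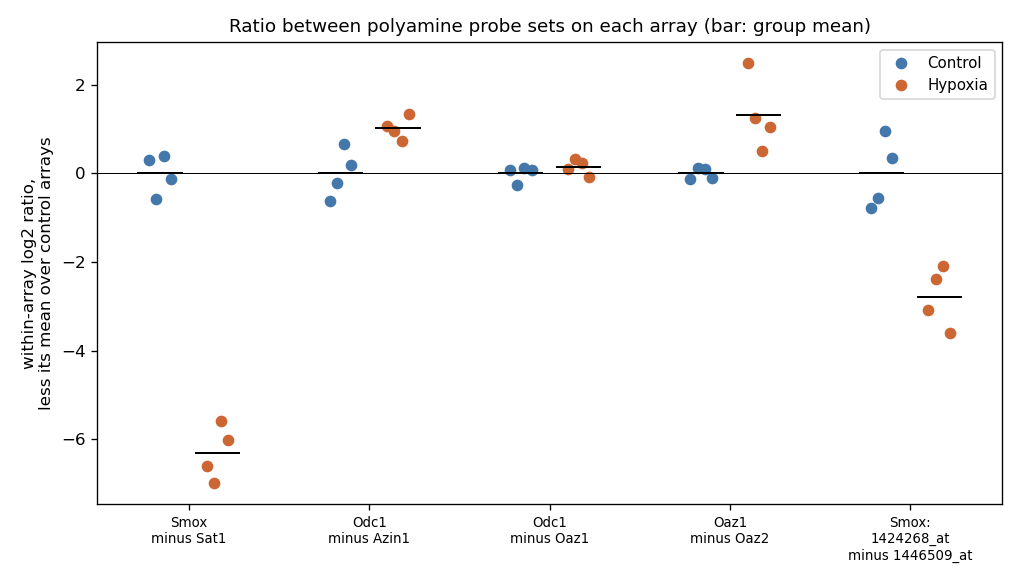
Within-array log2 ratio between 2 probe sets on each array, less its mean over the control arrays, for the 4 pairs of members and for both Smox probe sets. The Smox to Sat1 ratio lies between -6.99 and -5.59 in hypoxia, and the Odc1 to Oaz1 ratio overlaps between groups.

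Other genes that supply, move or act on polyamines were counted by list, each gene by its brightest probe set. Of 57 genes tested in 7 lists 9 rose and 12 fell. Among all 13257 genes 14.0% rose and 17.8% fell, so these counts were near the background, and the median change over the lists was 0.01 against -0.04 over all genes.

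Among 10 tested genes that supply ornithine and arginine 3 rose and 1 fell, with a median change of 0.43. Agmat, named for the conversion of agmatine to putrescine, rose by 2.00 ± 0.35 on the log2 scale from a signal of 111 ± 68.7 to 441 ± 76.5 (SD, n = 4 per group, adjusted p = 0.00102, limma). Control signals of Agmat went down to 47.6, below the filter signal of 90.2, so the size of its rise is poorly measured. Slc7a1, an arginine transporter of the cell surface, rose by 0.85 ± 0.20, and its other probe set rose by 1.01. Slc25a15, the mitochondrial ornithine carrier, fell by 0.97 ± 0.16 from 894 ± 15.4 to 452 ± 57.5 (adjusted p = 0.000581, limma). Oat, the mitochondrial ornithine aminotransferase, rose by 0.45 ± 0.14 (adjusted p = 0.0327, limma), a call lost without control 1, control 2, control 4, hypoxia 2 or hypoxia 4 (0.38 with adjusted p = 0.100, 0.49 with 0.0525, 0.44 with 0.0784, 0.43 with 0.0827 and 0.37 with 0.0957).

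The list of S-adenosylmethionine supply and methylthioadenosine salvage had 5 of 15 tested genes lower and 2 higher, with a median of -0.42. The salvage pathway recovers methionine from methylthioadenosine, the by-product of spermidine and spermine synthesis. Mtap, its first enzyme, fell by 1.13 ± 0.17 from 1544 ± 229 to 698 ± 114 (SD, n = 4 per group, adjusted p = 0.000378, limma), and its 3 other probe sets fell by 1.07 to 2.09. Apip, a later enzyme, fell by 1.23 ± 0.15, and Enoph1 (-0.82) and Adi1 (-0.88), the enzymes after it, also passed, although another Adi1 probe set (-0.24) did not. Mri1, the salvage enzyme between Mtap and Apip, changed by 0.39 ± 0.19 and did not pass (adjusted p = 0.152, limma). Enoph1, Adi1, Mri1 and Gnmt were named after their values were seen. Gamt, which uses S-adenosylmethionine to make creatine, fell by 1.73 ± 0.21 from 649.6 ± 75.3 to 187 ± 46.0. Ahcy, which clears S-adenosylhomocysteine, rose by 1.70 ± 0.15 from 1694 ± 211 to 5555 ± 839.6 (adjusted p = 6.86e-06, limma), and the other rise was Gnmt, a glycine methyltransferase (1.60). Amd1, Amd2 and Mat2a were not analysed here.

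Of 10 tested genes linked to polyamine transport 2 rose and 4 fell, with a median of -0.43. Atp13a3, a transport ATPase that takes up polyamines, rose by 1.96 ± 0.22 from 999 ± 71.0 to 4116 ± 1304 (SD, n = 4 per group, adjusted p = 3.97e-05, limma), and its other probe set rose by 1.91. Slc3a2, the heavy chain of several amino acid transporters, rose by 1.14 ± 0.15. Gpc1, a heparan sulfate proteoglycan of the cell surface, fell by 1.86 ± 0.32 and Slc47a1, an exporter of organic cations, by 1.85 ± 0.31. The other falls were Atp13a2, the lysosomal relative of Atp13a3 (-0.80), and Slc18b1, a vesicular polyamine transporter (-0.98), both named after their values were seen. The related ATPases thus had opposite signs, a difference that was not tested as such.

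Genes of hypusination, the modification of translation factor eIF5A with a part of spermidine, gave 0 of 4 calls by limma, and 1, Dhps, had an unadjusted p under 0.05. Eif5a read 19811 ± 1063 in control and 20448 ± 4640.3 in hypoxia (SD, n = 4 per group) and changed by 0.01 ± 0.17, and Dhps, deoxyhypusine synthase, changed by 0.61 ± 0.21 (adjusted p = 0.0509, limma). Eif5a2 (0.51) and Dohh (-0.19) did not pass. The further antizyme, inhibitor and acetyltransferase genes Oaz3 (-1.05), Azin2 (0.00), Sat2 (0.22) and Satl1 (0.26) also gave 0 calls by limma, and 1, Oaz3, had an unadjusted p under 0.05. Oaz3, the antizyme known from testis, read 49.4 in hypoxia 1 and 214 to 266 in the other hypoxia arrays, and without hypoxia 1 its change was -0.56. It was called lower without hypoxia 3 (-1.26, adjusted p = 0.0377, limma) and with a pseudocount of 64 (-0.84, adjusted p = 0.0472), and its other probe set changed by 0.06.

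Of 6 amine oxidase and aldehyde or peroxide disposal genes 2 fell and none rose, with a median of -0.19. Aoc3, an amine oxidase of vessels and fat cells, fell by 1.00 ± 0.27 and Aldh2, the mitochondrial aldehyde dehydrogenase, by 0.70 ± 0.18, while its 4 other probe sets, between -0.66 and -0.09, did not pass. Aldh3a2 (-0.28) and Gpx1 (-0.10) did not pass.

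Of 8 factors known to act on polyamine genes 2 rose and none fell, with a median of 0.31. Myc, a known activator of Odc1 transcription, rose by 2.92 ± 0.39 from 106 ± 55.4 to 904 ± 474 (SD, n = 4 per group, adjusted p = 0.000153, limma). Control signals of Myc went down to 39.2, below the filter signal of 90.2, so the size of its rise is poorly measured. Mxi1, an antagonist of Myc, rose by 0.58 ± 0.18 (adjusted p = 0.0273, limma), against 0.14 with no call on its second probe set, and that call was lost without control 1 (0.54, adjusted p = 0.0728), control 2 (0.60, 0.0510), control 3 (0.58, 0.0585), control 4 (0.59, 0.0554) or hypoxia 4 (0.42, 0.0715). Nfe2l2, a stress-response factor, changed by 0.55 ± 0.24 on its brightest probe set (adjusted p = 0.116, or 0.00717 without control 1, where the change was 0.82), and Elavl1, an RNA-binding protein, by -0.32 ± 0.16 (adjusted p = 0.171, or 0.0447 at -0.43 without hypoxia 1). Another probe set of Nfe2l2 rose by 2.71 and passed (adjusted p = 0.00105, limma), unlike the brightest. The other Elavl1 probe sets changed by 0.77, of the opposite sign, and by -0.30, and neither passed (adjusted p = 0.0939 and 0.265, limma).

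**Figure D4:**
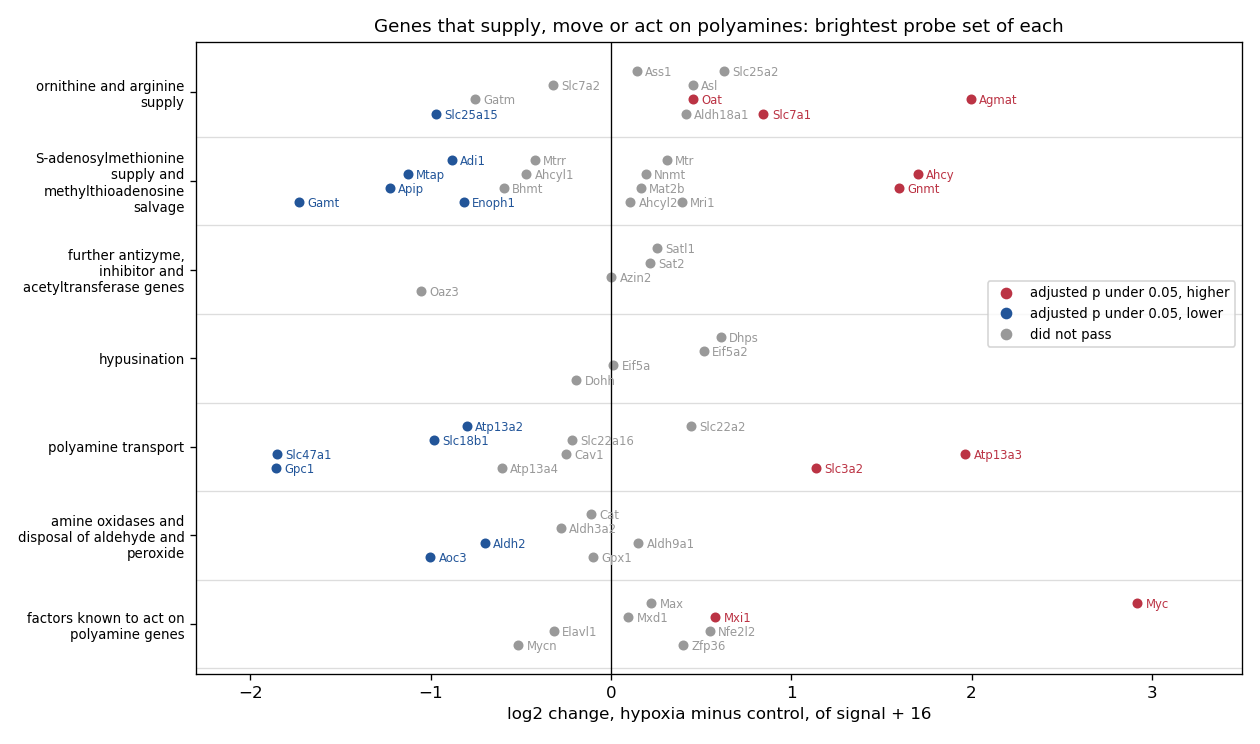
Log2 change (hypoxia minus control, of signal + 16) of the brightest probe set of each of 57 genes in 7 lists, coloured by limma's call. Of these 9 lie to the right with a call and 12 to the left, with Myc highest at 2.92 and Gpc1 lowest at -1.86.

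Genes whose profile over the 8 arrays lay closest to those of Smox, Sat1 and Oaz2, the called members with the largest changes by probe set, were found by the root mean square difference of log2 values, each centred on its own mean. Arrays of both groups enter this measure, so it picks genes with a like change between groups, and that likeness is no separate result. For Smox these were Podxl2 (0.37), Pi16 (0.39), Fam131a (0.39) and H2-Aa (0.43), whose log2 changes were -4.02, -4.45, -4.11 and -3.88. In hypoxia the mean signals of Podxl2 (13.35), Pi16 (51.7) and Fam131a (32.65) lay below the filter signal of 90.2. The sizes of these falls are therefore poorly measured. H2-Aa had a hypoxia mean of 266. Around Sat1 the distances were smaller, with Snx13 at 0.17, Slc35f5 at 0.18, 1810058I24Rik at 0.19 and Nap1l1 at 0.20. For Oaz2 the closest were Rarb (0.13), Cnnm4 (0.15), Rtn2 (0.18) and Ldhd (0.18), which like Oaz2 were chosen over arrays that include hypoxia 1.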

How the data were processed

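The authors deposited 1 linear MAS5 intensity per probe set and array, and MAS5 is named in the submitters' processing notes. Its version is not given in the sources used here. The authors' scaling was kept (2% trimmed mean of 500.0 on every array), and a common scaling lets a change in bright transcripts move all others slightly. The number of arrays limits the precision.

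Groups came from sample titles. The platform annotation gave 1 symbol to 34958 probe sets, several to 932 and none to 9211, and 99.4% of the first matched RefSeq gene identifiers of GRCm38.p6. After 64 control probe sets and the 40% with the lowest mean were left out, 27022 remained (signal above about 90.2). Hypoxia and control were compared per probe set on log2(signal + 16) with limma 3.58.1 in R 4.3.3 (intensity trend, two-sided, Benjamini-Hochberg over all 27022, threshold 0.05). A constant of 16 understates changes of dim genes. The fit was tested on simulated data. Ratios between probe sets were compared by exact permutation over arrays. Named are all members, up to 4 genes per list by smallest p, and the 4 closest profiles of 3 members. Members, lists and tests were chosen with earlier results of these data known, and the fall of Smox was among them. Probe sets of 1 gene share its RNA and are not replicates. Alternatives were 2 scalings, a pseudocount of 1 or of 64, a filter at 60% or none, 1 probe set per gene, eBayes without trend or robust, array weights, a replicate block and leaving out each array.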

Additional observations from a re-analysis of the deposited data

Results flagged for a closer look

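For the 13 tested probe sets, 26 groups of 4 log2 values were examined for a sample far from the others, and 2 had one. Chance alone flags about 1 in 20 such groups. Control 2 was the highest of its group for Oaz1 1436292_a_at, with a gap to its neighbour of 0.926 of the group's range (30629 against 25804 to 26134 in the other control arrays). Control 3 was the lowest of its group for Oaz2 1426763_at, at 0.959 of the range (3000 against 3476 to 3498).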

How the results depend on the processing

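Both members that rose kept their calls under all 19 alternatives, as did Smox 1424268_at, both Oaz2 probe sets and Azin1 1450714_at and 1422702_at wherever the filter kept them. Smox 1424268_at ranged from -4.60 to -4.26, Sat1 from 1.76 to 2.05, Srm from 1.11 to 1.40 and Oaz2 1426763_at from -1.86 to -1.26. With 1 probe set per gene, which reads 7 probe sets and not 13, 3 were lower. With the replicate number as a block (replicate block) the counts were again 8 lower and 2 higher, and 12 lower and 9 higher in the lists, and among the members and the list genes named by smallest p, Oat lost its call (adjusted p = 0.0711, limma), Nfe2l2 gained one (0.0435) and no other call changed. Same-numbered arrays deviated from their group means with correlations of -0.07 to 0.01, and differently numbered arrays with correlations of -0.06 to 0.08. A pairing by number was thus not seen, though these values cannot exclude one. Leaving out each array gave 6 to 8 lower member probe sets. Among list genes 7 to 12 were higher and 11 to 14 lower over the alternatives. The difference between Azin1 1450714_at and 1422702_at, which was -0.0013, turned to 0.0040 with a pseudocount of 1 and ran from -0.12 to 0.10 when arrays were left out, and that against 1430984_at ran from -0.53 to 0.041. Changes near 0 also turned sign when arrays were left out: Azin2 (-0.12 to 0.13), Sat2 (-0.015 to 0.39), Satl1 (-0.052 to 0.36), Eif5a (-0.077 to 0.20) and Dohh (-0.32 to 0.10). Dhps passed after quantile normalization (0.68, adjusted p = 0.0341, limma) and under several other settings. Of all calls 43.2% were higher as scaled by the authors and 50.2% once arrays were centred on their medians, and the median change moved from -0.04 to 0.04. For signals below about 90.2 the size of a change is poorly measured. Hypoxia means lay below this for the Smox probe set 1446509_at, and for Podxl2, Pi16, Fam131a and Cnnm4 among the closest profiles. Single signals did so too, such as those of Azin1 1430984_at (77.2) and Oaz3 (49.4) in hypoxia 1. In control, the lowest signals of Agmat (47.6) and Myc (39.2) were also below it.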
